A study of Mus musculus with 8 samples.

Results

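The response to cigarette smoke (CS) was examined in the α7G mouse line alone, by setting the 2 α7G CS libraries against the 2 α7G control libraries. These are 4 of the 8 RNA-Seq libraries of the experiment. The α7G line (Chrna7-IRES-tauGFP) carries a tau-GFP marker behind the gene of the nicotinic acetylcholine receptor α7 subunit and has the unaltered receptor. The mice were adults of more than 90% C57BL/6 background. CS mice breathed side-stream smoke on 5 days per week for 4 months, and control mice breathed room air. The CS mice were used a day after their last exposure. Each group held 1 male and 1 female library, and the number of animals behind a library is not given in the sources used here. RNA came from distal lung cells that were left after lavage and magnetic depletion of CD45-positive cells, which was done to enrich epithelium. The question was which genes differed between CS and control in the same direction in both sexes, and which pathways and cell types these genes belong to. A "pair" is the CS and the control library of the same sex, and the sexes share nothing else that the labels name.

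The distal lung epithelium holds alveolar type II cells, which make surfactant and store it in lamellar bodies, flat alveolar type I cells, and the club and ciliated cells of the small airways. Below it lie fibroblasts, which make the collagens and elastic fibers of the alveolar wall, and capillary endothelium. Electrophiles in smoke are known to activate NRF2, a transcription factor that induces glutathione, quinone and aldehyde detoxification. Polycyclic hydrocarbons in smoke are known ligands of the aryl hydrocarbon receptor, which induces Cyp1a1. The circadian clock is a loop in which Arntl and Clock drive transcription of Per, Cry, Nr1d1 and Dbp, and the NR1D receptors repress Arntl in turn.

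The libraries held between 8314124 and 9367806 CDS counts (reads counted on coding sequence), so that a count of 3, taken as the floor of detection, was 0.320 to 0.361 RPM (reads on the gene divided by the library total and scaled to 1e+06). Mitochondrially encoded genes took 3.55% to 5.49% and immunoglobulin genes 0.945% to 1.49% of the counts, with the groups overlapping in both. Chrna7, the gene that carries the marker, had 0 counts in each of the 4 libraries, so its level could not be compared. The epithelial adhesion molecule Epcam was at 131 and 188 RPM in the male and female controls and at 212 and 168 RPM in the male and female CS libraries. The pan-leukocyte gene Ptprc, which encodes the CD45 antigen used for the depletion, was at 1935 and 1387 RPM in the controls and at 804 and 771 RPM in CS. The endothelial Pecam1 was at 222 and 212 RPM in the controls and at 203 and 199 RPM in CS. Leukocyte and endothelial transcripts were present beside epithelial ones, and Ptprc was above Epcam in each of the 4 libraries. In a mixture of cell types, fewer cells of a type and less RNA per cell cannot be told apart.

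Coding length had to be handled first, because the ratio of CS to control followed it across the genes. In the male pair the log2 CS-to-control ratio fell by 0.47 for each doubling of coding length, which accounted for 55.3% of its variance across the 7196 genes tested. In the female pair it fell by 0.26, and length accounted for 38.9%. Genes with a CDS under 600 bases had a median log2 ratio of 0.78 in the male and 0.38 in the female pair. Genes with a CDS of 4800 bases or more had medians of -1.17 and -0.71. Both CS libraries were poorer in long coding sequences than both control libraries. The slope of a library's deviation from the mean of the libraries was 0.27 and 0.10 log2 units per doubling in the male and female controls and -0.20 and -0.16 in the male and female CS libraries. As both controls lay on one side and both CS libraries on the other, a response that follows transcript length and a difference between the libraries in their recovery of long transcripts cannot be told apart. An edgeR quasi-likelihood test without a length term called 7.55% of all genes higher and 8.53% lower. It called 43.8% of the shortest genes, nearly all of them higher in CS, and 63.6% of the longest, of which 292 were lower and 1 higher. For the values below, the length trend of each library was therefore removed, and log2 fold-changes are length-corrected unless stated otherwise. RPM values are never length-corrected.

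**Figure D1:**
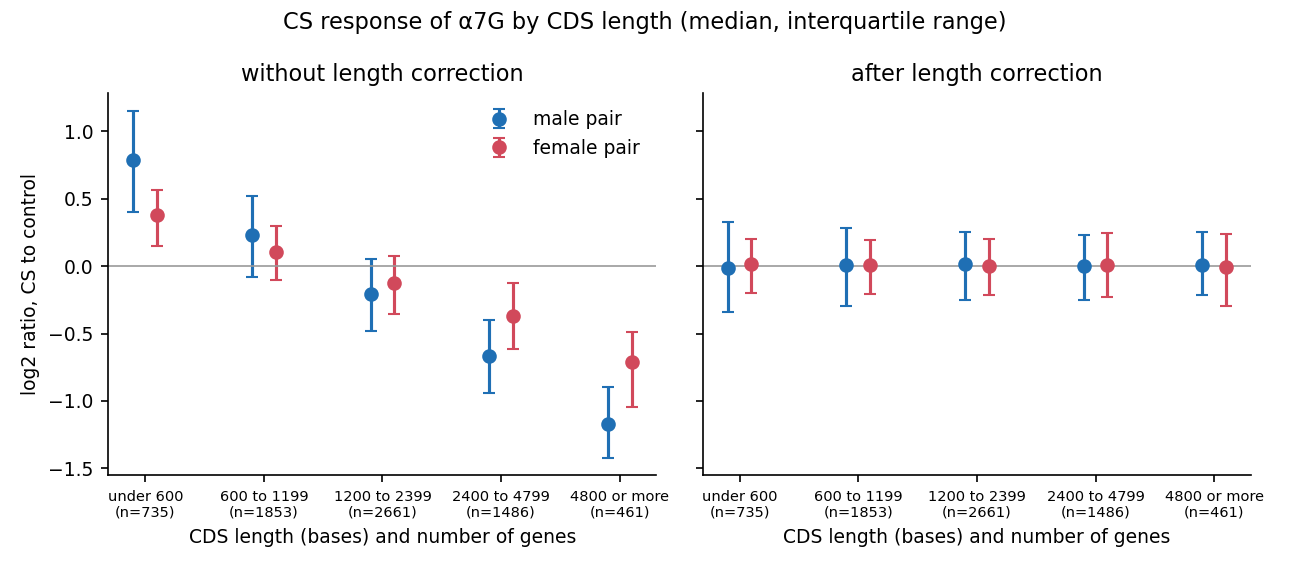
Log2 CS-to-control ratios for the male (blue) and female (red) α7G pairs by CDS length in bases, as the median (point) and interquartile range (bars) of the genes in each class. Without correction the medians ran from 0.78 and 0.38 in the shortest to -1.17 and -0.71 in the longest class, and after the correction they lay at about 0 in every class.

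With the length correction, edgeR called none of the 7196 genes at an adjusted p of 0.05 (Benjamini-Hochberg), so that 0.0% were called in either direction. At an unadjusted p of 0.05, 501 genes (6.96%) were higher and 677 (9.41%) lower in CS. DESeq2, an alternative test with the same correction, called 88 genes (1.22%) higher and 97 (1.35%) lower. The edgeR test had 2 libraries per group and its calls depended on single control libraries, with 42 calls when the male control was left out and 368 when the female control was left out. A permutation test of a single gene could not go below an exact two-sided p of 0.333 with 2 against 2 libraries. In what follows a gene is said to be called only by the test named, and all other values are descriptions.

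The pairs themselves gave a second view. After length correction, 2341 genes (32.5%) were higher in CS in both pairs and 2270 (31.5%) were lower in both, which is 64.1% of the genes tested. Without the correction the split was 27.4% higher and 47.7% lower, together 75.1%. A ratio of 1.5-fold or more in both pairs was reached by 89 genes (1.24%) upward and 153 genes (2.13%) downward. Of the 219 genes (3.04%) that passed 1.5-fold upward without the correction, 40 also passed with it, and of the 766 (10.6%) that passed downward, 116 did. The CDS of the 219 had a median of 468 bases and that of the 766 a median of 4012 bases, against 1548 bases over all genes tested. The 3′ untranslated length and the base composition of a gene still went with the response after this correction. The 97 genes that DESeq2 called lower had a median 3′ untranslated region of 2357 bases, against 773 bases over all genes tested and 360 bases for the 88 called higher. The GC content of their coding sequence had a median of 47.0%, against 52.1% over all genes tested and 55.8% for the genes called higher. When CDS length, 3′ untranslated length and GC content were corrected together, DESeq2 called 63 genes (0.875%) higher and 37 (0.514%) lower, and edgeR again called none. After this wider correction 29.8% of the genes were higher and 29.2% lower in both pairs, and its counts are given below where they matter.

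**Figure D2:**
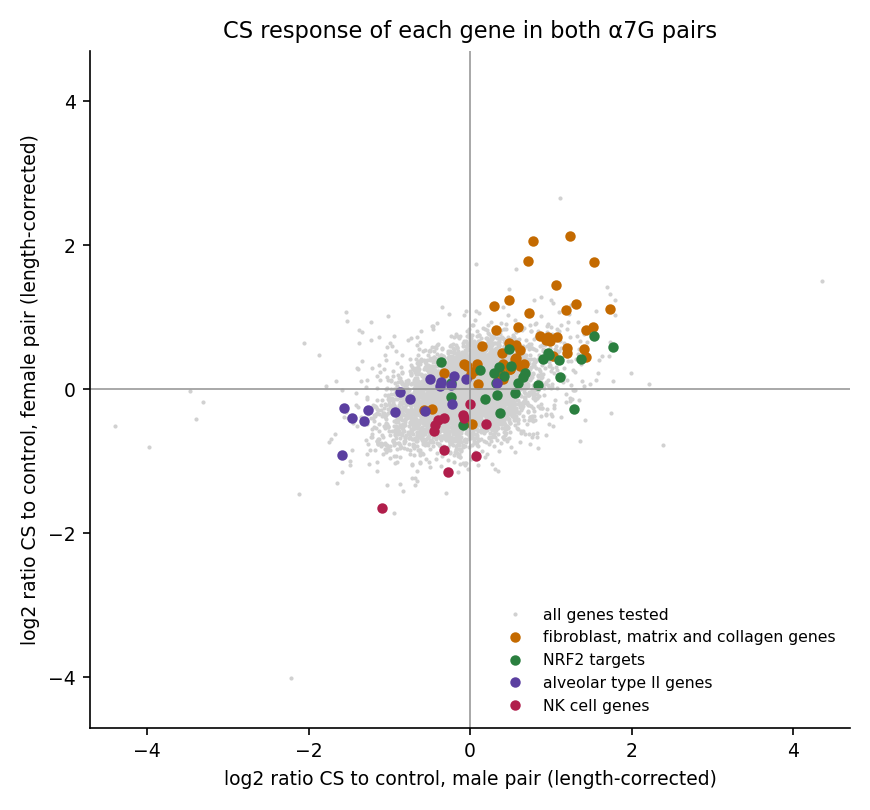
Length-corrected log2 CS-to-control ratio for each of the 7196 genes tested (grey) in the male pair (x axis) and the female pair (y axis), with members of 4 sets of lists in color. Of the fibroblast, matrix and collagen genes (orange) 44 of 50 lay above 0 in both pairs, most NRF2 targets (green) lay above 0 and most alveolar type II (violet) and NK cell genes (crimson) below 0 in the male pair.

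Most fibroblast and matrix genes were higher in CS in both pairs. The gene lists were chosen with earlier results of these data known, so counts over them are descriptions. The fibroblast list, the list of elastic fiber and other matrix proteins and the collagen list together held 50 genes tested, of which 44 (88.0%) were higher in CS in both pairs and 2 lower, against 32.5% and 31.5% of all genes tested. Without the length correction 26 of the 50 were higher and 14 lower in both pairs. DESeq2, with the correction, called 17 of the 50 higher and none lower, which is 34.0% of these genes and 19.3% of the 88 genes it called higher. It called 16 of them higher after the wider correction. For the 50 genes the male pair had a median log2 ratio of 0.59 and the female pair 0.55, against 0.01 and 0.00 over all genes tested.

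The gene with the smallest p in the edgeR test was Inmt, an indolethylamine N-methyltransferase that is abundant in mouse lung fibroblasts. It stood at 242 and 250 RPM in the male and female controls and at 878 and 936 RPM in the male and female CS libraries. The groups were far apart and the 2 libraries of each group close together, with a log2 fold-change of 1.64 ± 0.15 (SE, n = 2 per group). Its adjusted p was 0.051 in edgeR and 1.6e-17 in DESeq2. Inmt (ENSMUSG00000003477.5) is located on chromosome 6 (mm9, 55120620 to 55125037) and has a CDS of 792 bases.

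Small matrix proteins and proteoglycans showed the same order of groups. Decorin, Dcn, which binds collagen fibrils, was at 404 and 527 RPM in the controls and at 836 and 869 RPM in CS. The microfibril protein Mfap4 was at 38.4 and 31.7 RPM in the controls and at 76.5 and 119 RPM in CS. Its relative Mfap5 was at 11.8 and 15.1 RPM in the controls and at 46.7 and 42.2 RPM in CS. In all 3, both CS libraries were above both controls, and the log2 fold-changes were 0.79 ± 0.17, 1.27 ± 0.25 and 1.24 ± 0.19. Fibulin 1, Fbln1, a protein of elastic fibers and basement membranes, was at 55.2 and 81.7 RPM in the controls and at 107 and 119.6 RPM in CS (log2 fold-change 1.07 ± 0.24). Spondin 1, Spon1, was at 20.9 and 9.29 RPM in the controls and at 35.5 and 33.8 RPM in CS (log2 fold-change 1.60 ± 0.31). DESeq2 called these 5 genes higher, with adjusted p between 0.00037 and 0.0038.

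Some genes for secreted and metabolic proteins that lung fibroblasts express showed the same order. The 5 given here were named after their values were seen, so their order is a description, as are the list counts above. Extracellular superoxide dismutase, Sod3, was at 48.8 and 51.8 RPM in the controls and at 115 and 140.2 RPM in CS. Prostacyclin synthase, Ptgis, was at 22.3 and 28.4 RPM in the controls and at 64.6 and 65.1 RPM in CS. The chemoattractant precursor Rarres2 (chemerin) was at 43.7 and 63.4 RPM in the controls and at 162 RPM in both CS libraries. The spread within each group was small next to the gap between groups, and the log2 fold-changes were 1.08 ± 0.16, 1.5 ± 0.20 and 1.11 ± 0.15. The complement inhibitor Serping1 (231 and 276 RPM in the controls, 485 and 463 RPM in CS) and the complement protease C1ra (31.2 and 32.2 RPM in the controls, 57.1 and 61.9 RPM in CS) had log2 fold-changes of 1.00 ± 0.16 and 1.20 ± 0.18. For these 5 genes the adjusted p was 0.097 in edgeR, short of the threshold, and DESeq2 called each of them higher.

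Marker genes of alveolar fibroblasts and their progenitors were low but stood apart by group. The mesenchymal transcription factor Tcf21 was at 8.06 and 4.38 RPM in the controls and at 28.7 and 26.7 RPM in CS. The WNT ligand Wnt2 was at 1.32 and 1.17 RPM in the controls and at 6.17 and 4.63 RPM in CS, a few times the floor. These 2 genes and Col13a1 (4.93 and 2.56 RPM in the controls, 9.31 and 15.3 RPM in CS) were under the count filter. With edgeR's filterByExpr filter, which kept 14140 genes and called 1 of them (0.00707%), higher, and none (0.0%) lower, their log2 fold-changes were 1.78, 2.06 and 2.11, with adjusted p between 0.11 and 0.18. The platelet-derived growth factor receptor Pdgfra was at 30.9 and 28.2 RPM in the controls and at 32.0 and 45.1 RPM in CS. The integrin Itga8 was at 17.9 and 7.47 RPM in the controls and at 19.3 and 24.0 RPM in CS. Both had a small gap between the groups in RPM and length-corrected log2 fold-changes of 0.91 ± 0.21 and 1.33 ± 0.35, so that part of their difference came with the correction.

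**Figure D3:**
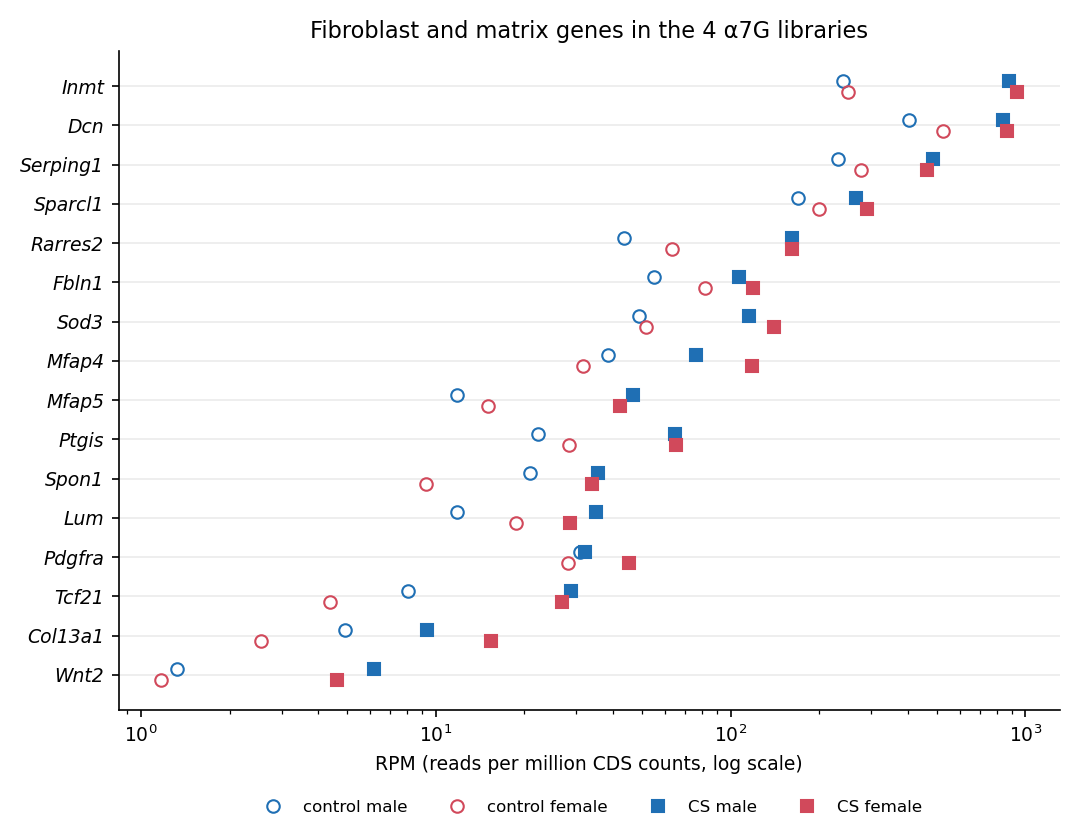
RPM (log scale) of 16 fibroblast and matrix genes in the control (open circles) and CS (filled squares) libraries of male (blue) and female (red) α7G mice, not corrected for length. Both CS values lay above both control values for each gene shown, from Inmt at 878 and 936 RPM in CS down to Wnt2 at 6.17 and 4.63 RPM. Serping1, Rarres2, Sod3 and Ptgis were named after their values were seen. The 16 genes are a selection. Col1a1 and Col3a1, whose groups overlapped in RPM, and Fn1, Eln and Npnt, which were lower in CS, are not shown. Without the length correction 26 of the 50 fibroblast, matrix and collagen genes tested were higher and 14 lower in both pairs.

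For the collagens the outcome depended on the length correction. Col1a1, a chain of the main fibrillar collagen, was at 171 and 175 RPM in the controls and at 251 and 168 RPM in CS. Its partner chain Col1a2 was at 294 and 283 RPM in the controls and at 379 and 301 RPM in CS. Col3a1 was at 243 and 309.9 RPM in the controls and at 195 and 293 RPM in CS. In RPM the groups overlapped for Col1a1 and Col3a1, whereas the length-corrected log2 fold-changes were 0.95 ± 0.23, 0.89 ± 0.18 and 0.48 ± 0.26. Without the correction they were 0.40, 0.36 and -0.06, so that the sign of Col3a1 turned. Of the 10 collagens tested, 9 were higher in both pairs with the correction and 3 without it, and the median log2 fold-change was 0.77 with it and 0.21 without. DESeq2 called Col1a1, Col1a2, Col6a2 and Col14a1 higher, and after the wider correction it called only Col1a2 and Col14a1. Fibronectin, Fn1, another long matrix gene, was at 641 and 381 RPM in the controls and at 277 and 261 RPM in CS, and its corrected log2 fold-change was 0.09 ± 0.17 and its uncorrected one -0.80. Elastin, Eln, the core protein of the elastic fiber, went the other way from most of its partners. It was at 38.8 and 27.5 RPM in the controls and at 18.4 RPM in both CS libraries, with a log2 fold-change of -0.45 ± 0.21 that no test called. The latent TGF-β binding protein Ltbp4, which assembles elastic fibers, was at 197 and 169.7 RPM in the controls and at 203 and 304 RPM in CS (log2 fold-change 1.27 ± 0.20, called higher by DESeq2). Besides Eln, the matrix protein nephronectin, Npnt, was the only gene of the 3 lists that was lower in both pairs, at 36.8 and 42.8 RPM in the controls and at 22.1 and 31.6 RPM in CS (log2 fold-change -0.37 ± 0.24).

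Counts of fibroblast list members did not rest on 1 library. Of the 23 tested, 21 had a log2 fold-change above 0, and 19 to 21 did when each library was left out in turn, with list medians between 0.65 and 0.92. Markers of endothelial and mesothelial cells mostly moved in the same direction. Of 16 endothelial genes tested, 13 were higher in both pairs and 1 lower, with a median log2 fold-change of 0.42 and 2 called higher by DESeq2. Without the length correction 8 were higher and 6 lower, with a median of 0.26. The endothelial genes Egfl7, Ramp2 and Eng were named after their values were seen, so they do not stand for the list. Egfl7, a secreted endothelial protein with a short coding sequence, was at 45.0 and 37.9 RPM in the controls and at 112 and 85.3 RPM in CS (log2 fold-change 1.08 ± 0.19). The adrenomedullin receptor partner Ramp2 was at 51.7 and 67.8 RPM in the controls and at 127 and 97.4 RPM in CS, and the TGF-β co-receptor Eng at 98.9 and 85.0 RPM in the controls and at 109 and 109.8 RPM in CS. Pecam1 itself, which was lower in CS in RPM, had a log2 fold-change of 0.20 ± 0.13. All 3 mesothelial genes tested, among them Msln (42.5 and 56.9 RPM in the controls, 90.7 and 64.1 RPM in CS), were higher in both pairs. Only 1 of the 17 smooth muscle and pericyte genes passed the count filter. The smooth muscle actin Acta2 was at 13.2 and 9.29 RPM in the controls and at 22.6 and 15 RPM in CS. The part of stromal cell content in the matrix genes was not tested.

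NRF2 targets were mostly higher in CS, with a larger response in the male pair. The core of the antioxidant response element, TGACNNNGC on either strand, was present in the promoter window (250 bases before to 50 after the start, RefSeq, GRCm38.p6) of 11 of the 28 listed NRF2 targets that had a window, against 12.4% of all 32851 windows. A gene counted when any of its listed windows matched, whereas the share over all windows is per window, so these are unlike measures. A match is a description and not a binding site. The windows of Gsta3, a glutathione S-transferase of club cells, and Prdx1, a peroxiredoxin that reduces hydrogen peroxide, are shown because both are abundant detoxification genes that were higher in CS in both pairs. Capitals mark the element. The Gsta3 window is chr1:21240335-21240634 on the + strand and the Prdx1 window is chr4:116685349-116685648 on the + strand, where the element reads on the other strand.
Gsta3: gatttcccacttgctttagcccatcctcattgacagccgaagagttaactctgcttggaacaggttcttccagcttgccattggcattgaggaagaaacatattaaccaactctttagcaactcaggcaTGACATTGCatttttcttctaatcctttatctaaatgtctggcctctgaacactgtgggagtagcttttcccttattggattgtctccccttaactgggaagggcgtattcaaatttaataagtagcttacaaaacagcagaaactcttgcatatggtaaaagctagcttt
Prdx1: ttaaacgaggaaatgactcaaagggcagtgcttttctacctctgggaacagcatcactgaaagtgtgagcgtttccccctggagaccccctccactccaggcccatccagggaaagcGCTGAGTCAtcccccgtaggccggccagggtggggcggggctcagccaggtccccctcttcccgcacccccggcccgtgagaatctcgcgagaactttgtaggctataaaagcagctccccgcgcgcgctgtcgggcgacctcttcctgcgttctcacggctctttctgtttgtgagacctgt

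Of the 28 NRF2 targets tested, 19 were higher in both pairs and 2 lower, and DESeq2 called 4 higher, of which 1, Akr1b8, was called after the wider correction. A log2 fold-change above 0 was found for 24 of them, and for 20 to 25 when each library was left out in turn. The male pair had a median log2 ratio of 0.53 and the female pair 0.20, and without the length correction it was 0.89 and 0.30. Akr1b8, an aldo-keto reductase, was at 25.9 and 31.8 RPM in the controls and at 86.0 and 56.3 RPM in CS (log2 fold-change 1.15 ± 0.23, called by DESeq2). Carbonyl reductase 3, Cbr3, was at 24.9 and 29.7 RPM in the controls and at 104 and 48.4 RPM in CS (1.26 ± 0.32 on the log2 scale, called by DESeq2). In both genes the CS libraries lay above the controls and the male CS library was the highest. The same order held for the microsomal epoxide hydrolase Ephx1 (213 and 242 RPM in the controls, 382 and 323 RPM in CS) and the microsomal glutathione transferase Mgst1 (506 and 571 RPM in the controls, 1135 and 826 RPM in CS), which were the other 2 genes called by DESeq2. Gsta3 was at 151 and 186 RPM in the controls and at 371 and 223 RPM in CS, and Prdx1 was at 524 and 722 RPM in the controls and at 1142 and 908 RPM in CS. After length correction the female pair of these last genes was near 0, with log2 ratios of 0.06 and 0.09.

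The quinone reductase Nqo1, a classic NRF2 target, was at 7.10 and 8.01 RPM in the controls and at 63.5 RPM in the male and 14.1 RPM in the female CS library. Gsta1 had 0 counts in both controls and was at 13.8 RPM in the male and 0.677 RPM in the female CS library, and its reads may be shared with close paralogs. Glutathione peroxidase 2, Gpx2, was at 32.4 and 31.5 RPM in the controls and at 124 and 50.4 RPM in CS. In each of these genes the male CS library was far above the female one. The genes of glutathione synthesis and of heme breakdown did not share this order. The catalytic subunit of glutamate-cysteine ligase, Gclc, was at 169.6 and 175 RPM in the controls and at 129.6 and 109 RPM in CS, with a log2 fold-change of -0.30 ± 0.15. Its regulatory subunit Gclm had a log2 fold-change of -0.01 ± 0.21, glutathione reductase Gsr of -0.19 ± 0.15 and heme oxygenase Hmox1 of -0.09 ± 0.15.

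Aldehyde and alcohol dehydrogenases gave a like picture, with 16 of the 30 genes of the aldehyde, alcohol and xenobiotic list higher in both pairs and 4 lower. Adh1, which oxidizes retinol and ethanol, was at 39.9 and 71.2 RPM in the controls and at 124 and 152 RPM in CS (log2 fold-change 1.26 ± 0.26, called by DESeq2). Unlike the NRF2 targets above, its female CS library was the highest. Aldh3a1, which clears lipid aldehydes in airway epithelium, was at 111 and 93.4 RPM in the controls and at 329 and 124 RPM in CS (log2 fold-change 1.19 ± 0.38, not called). Adh7 was at 40.4 and 69.1 RPM in the controls and at 146 and 75.8 RPM in CS, so that its female pair differed little.

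The aryl hydrocarbon receptor pathway showed no common direction. Cyp1a1, the enzyme most used as a readout of the receptor, was at 14.1 and 6.83 RPM in the controls and at 28.0 RPM in the male and 1.58 RPM in the female CS library, so that the pairs went opposite ways. Cyp1b1 was at 4.09 and 4.06 RPM in the controls and at 7.33 and 5.19 RPM in CS. Cyp1a2 had 0 counts in every library, and the receptor's repressor Ahrr had counts in the male control alone, at 0.481 RPM. The target Tiparp had a log2 fold-change of -0.04 ± 0.18. Of the 9 genes of the list that were tested, 3 were higher in both pairs and 1 lower, with a median log2 fold-change of 0.07.

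Among the clock genes, Arntl and Clock were lower and Nr1d1 and Dbp higher in CS in both pairs. Clock transcripts vary with the hour of the day. The hour at which control tissue was collected is not given in the sources used here, and its part was not tested. The motif AGGTCA, searched on both strands and known as the core of the element bound by the NR1D repressors and ROR activators, was present in the windows of 3 of the 7 genes that had one in the list of clock activators and genes in phase with them, Arntl, Clock and Nfil3, and of 2 of 10 repressor and output genes, Nr1d2 and Per1, against 16.3% of all windows. The E-box CACGTG, bound by the products of Arntl and Clock, was present in 3 of 10 repressor and output genes, Tef, Per1 and Bhlhe41, and in 2 of 7 genes of the activator list, Cry1 and Gm129, against 7.15% of all windows. As for the NRF2 targets, a gene counted when any of its listed windows matched, unlike the share over all windows. For Arntl, with 2 windows listed, and Clock, with 3, the first window with a match is shown. The windows of Arntl, Clock and Nfil3 are shown because these genes were lower in CS in both pairs, with the motif in capitals. They are chr7:113207261-113207560 on the + strand for Arntl, chr5:76303453-76303752 on the - strand for Clock and chr13:52980990-52981289 on the - strand for Nfil3. In the last 2 the motif reads on the other strand.
Arntl: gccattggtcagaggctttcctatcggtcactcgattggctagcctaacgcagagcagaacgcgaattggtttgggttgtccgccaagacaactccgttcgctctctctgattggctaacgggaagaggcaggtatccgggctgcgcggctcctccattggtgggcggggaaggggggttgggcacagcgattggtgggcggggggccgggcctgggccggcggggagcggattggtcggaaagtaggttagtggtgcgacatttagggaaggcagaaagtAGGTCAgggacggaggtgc
Clock: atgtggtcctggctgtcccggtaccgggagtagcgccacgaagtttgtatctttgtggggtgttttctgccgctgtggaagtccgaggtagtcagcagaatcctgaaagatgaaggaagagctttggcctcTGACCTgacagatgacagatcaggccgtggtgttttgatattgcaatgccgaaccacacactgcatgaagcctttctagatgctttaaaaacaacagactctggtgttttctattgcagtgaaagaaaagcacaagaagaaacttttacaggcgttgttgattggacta
Nfil3: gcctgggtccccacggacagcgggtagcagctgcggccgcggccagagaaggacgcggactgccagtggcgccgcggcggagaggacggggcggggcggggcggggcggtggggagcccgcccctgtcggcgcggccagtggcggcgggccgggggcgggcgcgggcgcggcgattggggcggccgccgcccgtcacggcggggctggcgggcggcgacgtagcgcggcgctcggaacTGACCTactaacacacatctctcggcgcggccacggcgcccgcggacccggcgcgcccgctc

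The activator list also holds Cry1, a repressor that peaks in phase with Arntl, and all 4 of its tested genes (Arntl, Clock, Nfil3 and Cry1) were lower in both pairs, and the list median stayed between -0.70 and -0.60 when each library was left out in turn. Arntl was at 50.3 and 36.7 RPM in the controls and at 17.5 and 24.6 RPM in CS (log2 fold-change -0.81 ± 0.23). Clock was at 34.0 and 23.6 RPM in the controls and at 14.7 and 11.2 RPM in CS (-0.75 ± 0.25 on the log2 scale). Nfil3, which represses the promoters that Dbp activates, was at 56.9 and 60.1 RPM in the controls and at 32.7 and 43.7 RPM in CS (-0.56 ± 0.20 on the log2 scale). In each of them both CS libraries were below both controls, and neither edgeR nor DESeq2 called them. Npas2, a paralog of Clock that was under the count filter, was at 10.6 and 7.69 RPM in the controls and at 3.38 and 3.61 RPM in CS. Cry1 was at 52.6 and 56.8 RPM in the controls and at 41.3 and 29.4 RPM in CS.

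Nr1d1, which encodes the REV-ERBα repressor of Arntl, was at 37.6 and 12.7 RPM in the male and female controls and at 66.6 and 71.2 RPM in CS. The controls differed from each other, but both were below both CS libraries, and the log2 fold-change was 1.71 ± 0.39 with an adjusted p of 0.14 in edgeR and 0.00029 in DESeq2. Part of Nr1d1 overlaps Thra on the opposite strand, so that its count rests on strand-specific counting. Dbp, the output transcription factor, was under the count filter, at 7.70 and 8.65 RPM in the controls and at 47.4 and 28.8 RPM in CS, with a log2 fold-change of 2.13 ± 0.28 under filterByExpr. Of the 7 tested genes of the repressor and output list, 5 were higher and 0 lower in both pairs, with a median log2 fold-change of 0.09. Without the length correction 5 were higher and 2 lower. Not all output genes rose as Nr1d1 and Dbp did. Per1 was at 103 and 78.0 RPM in the controls and at 46.4 and 64.6 RPM in CS, with a corrected log2 fold-change of -0.07 ± 0.18. Per2, Tef and Bhlhe41 had log2 fold-changes of 0.04, 0.22 and 0.09, each smaller than its standard error.

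**Figure D4:**
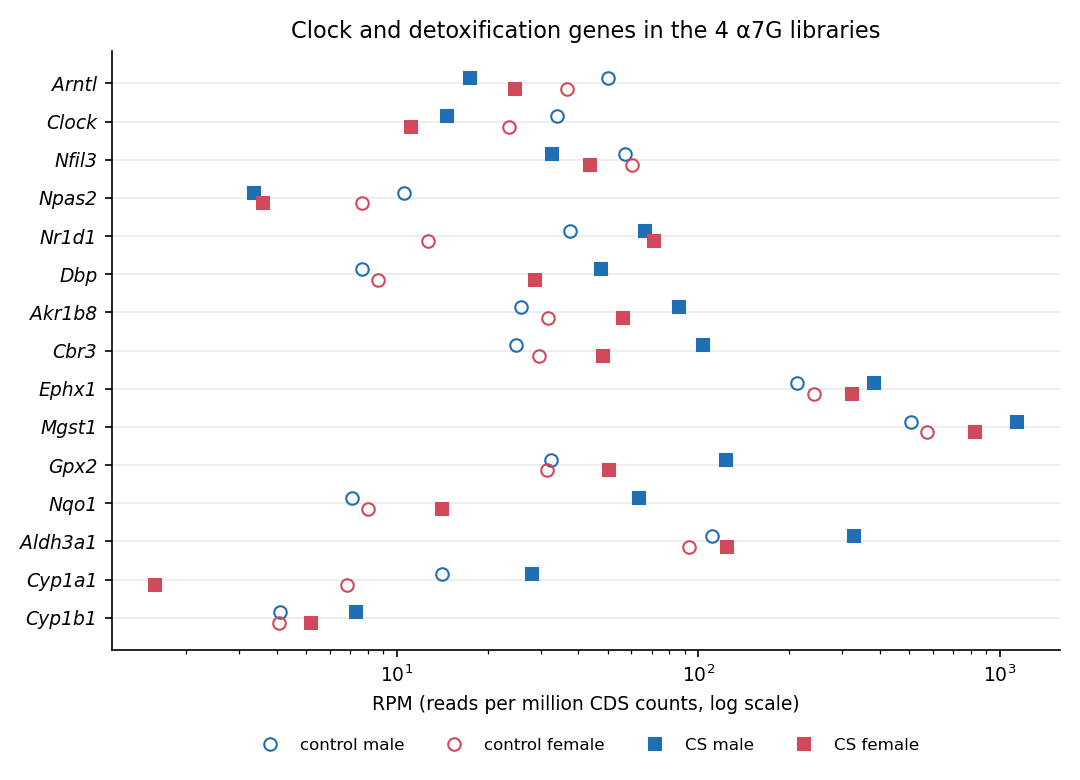
RPM (log scale) of clock genes (Arntl to Dbp) and detoxification genes (Akr1b8 to Cyp1b1) in control (open circles) and CS (filled squares) libraries of male (blue) and female (red) α7G mice, not corrected for length. Arntl, Clock, Nfil3 and Npas2 were lower and Nr1d1 and Dbp higher in both CS libraries, and Cyp1a1 was the only gene shown whose pairs went opposite ways.

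Alveolar type II genes were lower in CS, mostly in the male pair. Of 17 tested, 10 were lower in both pairs and 1 higher, and DESeq2 called 2 lower. Their median log2 ratio in the male pair was -0.56, and in the female pair -0.13. After the wider correction 14 were lower and 0 higher in both pairs, and DESeq2 called 1 lower. The phosphate transporter Slc34a2, which takes up phosphate from surfactant breakdown, was at 1168 and 962 RPM in the controls and at 379 and 681 RPM in CS. The lamellar body protein Lamp3 was at 307 and 327 RPM in the controls and at 125 and 237 RPM in CS, and complement component Hc, which is made by these cells in the mouse, was at 759 and 671 RPM in the controls and at 139.7 and 339 RPM in CS. In all 3 the male CS library was the lowest. The log2 fold-changes were -0.72 ± 0.27, -0.81 ± 0.28 and -0.82 ± 0.35, and none was called. The surfactant proteins themselves did not separate the groups. Sftpc was at 12453 and 15288 RPM in the controls and at 12914 and 20145 RPM in CS (log2 fold-change -0.14 ± 0.32), and Sftpb had a log2 fold-change of -0.18 ± 0.20. The list median was -0.34 with the length correction, -0.01 without it, and between -0.63 and -0.10 when each library was left out, the latter without the male CS library.

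Among genes of lipid and barrier function, 3 were named after their values were seen. Scd1, the desaturase that makes monounsaturated fatty acids, is on the alveolar type II list. It was at 528 and 333 RPM in the controls and at 190.3 and 181 RPM in CS. The log2 fold-change of Scd1 was -1.30 ± 0.23, with an adjusted p of 1.6e-05 in DESeq2. Its paralog Scd2 was at 65.2 and 61.1 RPM in the controls and at 37.1 and 32.9 RPM in CS (-0.93 ± 0.17 on the log2 scale, called by DESeq2). The claudin Cldn18, which seals the alveolar epithelium, is on the alveolar type I list. It was at 59.9 and 62.8 RPM in the controls and at 27.2 and 40.0 RPM in CS (-0.97 ± 0.22 on the log2 scale, called by DESeq2). In each of these 3 genes both CS libraries were below both controls, and after the wider correction DESeq2 called Scd1 but not Scd2 or Cldn18. The wider list of fatty acid and triglyceride metabolism was split, with 7 of 24 genes higher and 11 lower in both pairs.

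Airway secretory genes went in several directions. Secretoglobin Scgb1a1, a defining club cell transcript, was at 37684 and 47304 RPM in the controls and at 43965 and 58080 RPM in CS, and its log2 fold-change was -0.48 ± 0.36 with and 0.38 without the length correction. Scgb3a2 was at 2014 and 2806 RPM in the controls and at 4575 and 5185 RPM in CS, and Scgb3a1 at 936 and 2012 RPM in the controls and at 3021 and 4046 RPM in CS. Both were above the controls in each CS library, and their corrected log2 fold-changes were 0.48 ± 0.21 and 0.64 ± 0.30. Lactoferrin, Ltf, an iron-binding antimicrobial protein, was at 312 and 565 RPM in the controls and at 158 and 239 RPM in CS. The polymeric immunoglobulin receptor Pigr, which carries IgA into the airway lumen, was at 159.5 and 177 RPM in the controls and at 77.6 and 98.7 RPM in CS (log2 fold-change -0.61 ± 0.18). Clca3, a goblet cell product, was at 29.8 and 303 RPM in the controls and at 4.31 and 15.1 RPM in CS. For Clca3 the 2 controls differed by more than the lower control differed from either CS library, and no test called it. The keratins Krt7, Krt18 and Krt19 were higher in CS in RPM, Krt7 at 76.3 and 103 RPM in the controls and at 219 and 116 RPM in CS, and DESeq2 called Krt7. Cadherin Cdh1, which joins epithelial cells, was at 279 and 293 RPM in the controls and at 149.8 and 145 RPM in CS, with a log2 fold-change of -0.56 ± 0.15. Of the 11 general epithelial genes tested, 5 were higher and 3 lower in both pairs, and of the 8 alveolar type I genes 2 and 4.

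Immune transcripts that remained after the depletion were examined by cell type. Of 12 NK cell genes tested, 9 were lower in both pairs and none higher, with a median log2 fold-change of -0.43. Il18rap, the accessory chain of the interleukin-18 receptor, was at 58.2 and 65.9 RPM in the controls and at 22.7 and 18.6 RPM in CS (log2 fold-change -1.38 ± 0.20, adjusted p 0.097 in edgeR and 4.5e-05 in DESeq2). Its partner chain Il18r1 was at 90.0 and 89.2 RPM in the controls and at 41.0 and 40.0 RPM in CS (-0.97 ± 0.15 on the log2 scale, called by DESeq2). Both chains of the interleukin-18 receptor were thus lower in both pairs. They were named after their values were seen, and Il18r1 is not on the NK list. The cytotoxic granule genes were not lower in RPM in both pairs, with Gzma at 392 and 817 RPM in the controls and at 547 and 633 RPM in CS, and Nkg7 at 165 and 241 RPM in the controls and at 260.3 and 259 RPM in CS. Their log2 fold-changes were -0.23 ± 0.29 and -0.12 ± 0.15 with the length correction and 0.07 and 0.47 without it. The chemokine Ccl5 was at 256 and 397 RPM in the controls and at 398 and 378 RPM in CS, and its log2 fold-change was -0.52 ± 0.15 with the length correction but 0.36 without it. For the NK list as a whole the median was -0.07 without the length correction and -0.13 when the female control was left out. Without the length correction 1 of the 12 genes was higher and 3 were lower in both pairs.

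Il1rl1, Clec9a and Cx3cr1, receptors of other immune cells that were named after their values were seen, were also low in CS. The interleukin-33 receptor Il1rl1 was at 11.5 and 12.6 RPM in the controls and at 1.51 and 3.05 RPM in CS. Clec9a, a receptor of cross-presenting dendritic cells, was at 14.3 and 14.5 RPM in the controls and at 6.28 and 4.85 RPM in CS. The fractalkine receptor Cx3cr1 was at 62.1 and 39.6 RPM in the controls and at 24.4 and 22.7 RPM in CS (log2 fold-change -1.20 ± 0.25, called by DESeq2). In all 3 both CS libraries were below both controls. The dendritic cell list, which holds Clec9a, had 0 genes higher and 3 lower in both pairs among the 4 tested. With filterByExpr, which kept 12 of its genes, 0 were higher and 10 lower. The lists that hold Cx3cr1 and Il1rl1 were less even. The interstitial macrophage and monocyte list (15 tested) had 2 genes higher and 6 lower in both pairs. The 1 tested gene of the mast cell, basophil and eosinophil list had log2 ratios of 0.94 in the male and -0.36 in the female pair. The T cell list (14 tested) had 3 genes higher and 6 lower in both pairs, the B cell list (11 tested) 5 and 2, and the leukocyte common list (12 tested) 2 and 2. Ptprc, whose RPM was lower in CS in both pairs, has a long coding sequence, and its log2 fold-change was -0.42 ± 0.17 with and -0.95 without the length correction. Itgb2, an integrin chain shared by leukocytes, had a log2 fold-change of 0.06 ± 0.16.

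The macrophage scavenger receptors Marco and Msr1 went opposite ways. Marco was at 162.5 and 312 RPM in the controls and at 487 and 456 RPM in CS (log2 fold-change 1.09 ± 0.29, called higher by DESeq2). Msr1 was at 18.6 and 17.9 RPM in the controls and at 6.28 and 8.24 RPM in CS (-1.27 ± 0.31 on the log2 scale, called lower by DESeq2). The alveolar macrophage list as a whole was even, with 7 of 21 genes higher and 5 lower in both pairs and a median log2 fold-change of 0.02. Macrophage elastase Mmp12, which cleaves elastin, was at 24.4 and 15.7 RPM in the controls and at 1.28 and 8.12 RPM in CS, with the male pair carrying most of the difference. Of the macrophage genes with high levels, Lyz2 had a log2 fold-change of -0.34 ± 0.25, Chi3l3 of 0.40 ± 0.34 and the lysosomal protease Ctss of 0.26 ± 0.19.

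The male control library stood apart for myeloid genes, which bears on every list that holds them. Gelatinase Mmp9 was at 289 RPM in it, at 42.0 RPM in the female control and at 76.1 and 75.4 RPM in CS. The granulocyte receptor Csf3r was at 374 RPM in the male control, at 54.3 RPM in the female control and at 92.9 and 86.2 RPM in CS. The complement gene C1qa was at 143 RPM in the male control and between 17.7 and 25.5 RPM in the other libraries. The immediate early gene Fos (821 and 245 RPM in the controls, 332 and 437 RPM in CS) and the cytokine Il1b (561 and 101 RPM in the controls, 189.8 and 153 RPM in CS) followed the same order in the controls. The 8 neutrophil genes tested had a median log2 fold-change of -0.58, which was 0.52 without the male control and -1.22 without the female control, so that their direction turned on the control chosen. The medians of immediate early genes (-0.20) and of interstitial macrophages and monocytes (-0.37) became 0.43 and -0.01 without the male control. The precursors of red blood cells, a further source of RNA in lung tissue, were lower in both pairs in 5 of 6 genes, with the heme synthesis enzyme Alas2 at 128 and 59.4 RPM in the controls and at 32.2 and 32.0 RPM in CS (log2 fold-change -1.34 ± 0.30, called by DESeq2), and their median moved from -0.86 to -0.14 without the male control. Without the length correction 2 of the 6 were lower and none higher in both pairs, with a median of -0.10.

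Several gene groups that stood out in RPM did so with their length. Axonemal dynein heavy chains, the motors of motile cilia, are encoded by very long genes. Dnahc5 was at 99.6 and 145 RPM in the controls and at 32.9 and 36.0 RPM in CS, and Dnahc11 at 52.8 and 67.8 RPM in the controls and at 18.6 and 19.4 RPM in CS. All 8 dyneins tested were lower in both pairs without the correction, with a median log2 fold-change of -1.38. After it, none went the same way in both pairs, and the median was -0.31, and 0.18 without the female control. After the wider correction 4 of the 8 were lower and 0 higher in both pairs, with a median of -0.42. The 47 long chromatin and transcription regulators were all lower in both pairs without the correction (median -1.04), and 24 were lower and 5 higher with it (median -0.16). Of the 23 HECT and giant ubiquitin ligases, which were likewise all lower without the correction, 11 were lower and 6 higher with it (median -0.10). These medians after correction are against a median of -0.01 over all genes tested.

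At the other end, nuclear genes of respiratory complex I are short. Ndufa4 was at 109 and 154 RPM in the controls and at 299.7 and 241 RPM in CS, and Ndufa3 at 94.3 and 132 RPM in the controls and at 293 and 234 RPM in CS. The median log2 fold-change of the 33 genes tested was 0.95 without and 0.33 with the length correction, and 30 of them were still higher in both pairs with it, though DESeq2 called only 1. After the wider correction 25 were higher in both pairs. The mitochondrially encoded partner mt-Nd6 was at 36.7 and 78.4 RPM in the controls and at 29.4 and 29.1 RPM in CS (log2 fold-change -1.41 ± 0.28, called lower by DESeq2), while mt-Co1, another mitochondrially encoded gene, had 0.10 ± 0.30.

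Ciliated cell genes apart from the dyneins depended on a single library. Of 26 tested, 1 was higher and 4 were lower in both pairs, with medians of 0.38 in the male and -0.42 in the female pair. The list median was -0.10, and 0.35 when the female control was left out. The lysosomal list showed a small but even difference, with 21 of 36 genes higher in both pairs and 4 lower and a median log2 fold-change of 0.12. Interferon-stimulated genes (4 higher and 10 lower of 25), chemokines and cytokines (1 and 6 of 14), cell cycle genes (3 and 10 of 20), heat shock proteins (2 and 1 of 17), the unfolded protein response (9 and 7 of 21), sterol synthesis (4 and 5 of 17) and iron handling (5 and 4 of 14) had medians within 0.30 of 0. In the list of TGF-β, BMP and WNT signalling, 4 of 16 genes were higher and 9 lower. Tgfbr1, the type I TGF-β receptor, was called lower by DESeq2, at 93.2 and 69.9 RPM in the controls and at 29.6 and 32.3 RPM in CS (log2 fold-change -1.26 ± 0.18, adjusted p 0.097 in edgeR and 4.9e-05 in DESeq2).

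**Figure D5:**
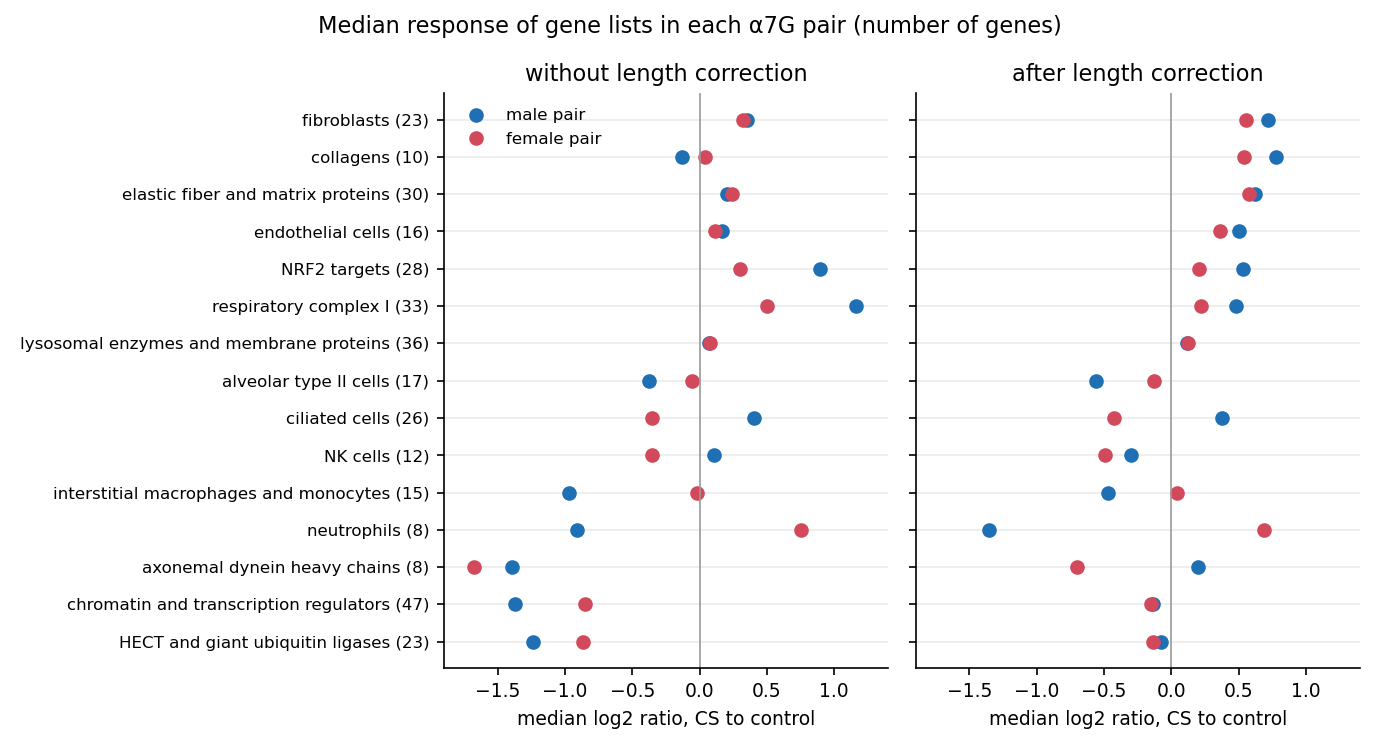
Median log2 CS-to-control ratio of 15 gene lists for the male (blue) and female (red) α7G pair, without (left) and with (right) the correction for CDS length, with the number of genes tested in parentheses. The correction moved dyneins, chromatin regulators and ubiquitin ligases from between -1.67 and -0.85 to between -0.70 and 0.19. Complex I went from 1.16 and 0.50 to 0.48 and 0.22. Fibroblast and matrix lists were above 0 without the correction and farther above 0 with it, whereas collagens went from -0.13 and 0.04 to 0.78 and 0.54.

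The α7E260A:G line, whose receptor carries a substitution and whose 4 libraries have their own controls, was used only to ask whether these differences were particular to α7G. The edgeR test of the difference between the 2 responses called none of the 7196 genes (0.0%), with 233 at an unadjusted p of 0.05, and DESeq2 called 4 (0.0556%). Hsd11b1, which activates glucocorticoids and is made by lung fibroblasts, was one of these 4. It was at 55.9 and 61.6 RPM in the α7G controls and at 125 and 109 RPM in α7G CS (log2 fold-change 0.88 ± 0.14), and at 107 and 85.0 RPM in the α7E260A:G controls and at 77.1 and 74.8 RPM in α7E260A:G CS. The difference of the responses was -1.38 ± 0.25 on the log2 scale, with an adjusted p of 0.98 in edgeR and 0.017 in DESeq2. The others were Fn1, Ear6 and Cxcr1. Inmt was at 717 and 361 RPM in the α7E260A:G controls and at 543 and 582 RPM in CS, and its difference of -1.80 ± 0.48 was not called by either test. Of the 50 fibroblast, matrix and collagen genes, 19 were higher and 6 lower in both α7E260A:G pairs, against 29.1% and 27.5% of all genes tested, with medians of -0.07 in the male and 0.60 in the female pair. Of the 28 NRF2 targets, 25 were higher and 1 lower in both α7E260A:G pairs. Of the 4 clock activator genes 0 were higher and 3 lower there, and of the 7 clock repressor and output genes 5 and 0. For the 12 NK cell genes these counts were 0 and 10, and for the 17 alveolar type II genes 0 and 4. For the 16 endothelial genes they were 6 and 1, and for the 33 complex I genes 11 and 6.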

How the data were processed

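Stranded poly-adenylated mRNA libraries were aligned by the authors with STAR to mm9 (NCBIM37) and counted with htseq-count on the coding sequence of GENCODE M1 genes. The authors deposited raw counts for 22756 genes per library, without normalization. Coordinates and CDS lengths were read from GENCODE M1, which held every gene.

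A mean of 200 counts or more over the 8 libraries was required, and immunoglobulin, histocompatibility, Gm and ribosomal protein genes were left out by name, after the study's description of its filter. This left 7196 genes here, a number that need not equal the study's. A length trend of each library (lowess of the log2 deviation on log2 CDS length, span 0.667) served as an offset. The 4 α7G libraries were tested with edgeR 4.0.16 (glmQLFit and glmQLFTest, TMM, R 4.3.3) with exposure as the only term, at a Benjamini-Hochberg adjusted p of 0.05. Standard errors were derived from each fold-change and its F value. Pair ratios used log2 RPM with 0.5 added to each count. The difference of responses was tested over the 8 libraries. Alternatives, DESeq2 1.42.0 among them, are given in the closing section. An offset for CDS length, 3′ untranslated length and GC content together was added after the data were seen.

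The 58 gene lists and the genes were chosen with earlier results of these data known, and 8 listed symbols were not found. A fixed rule took anchor genes, members of each list that were called, up to 6, or else its 3 members with the highest mean RPM, and any circadian, aryl hydrocarbon receptor, dynein or fibroblast gene. It gave 92 of 158 genes, and 66 were named after their values were seen. The male and the female library are the only replicates of a group, and p-values measure the spread between them, which includes sex. Promoter windows (RefSeq, GRCm38.p6) were matched by symbol.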

Additional observations from a re-analysis of the deposited data

How the results depend on the processing

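The edgeR test of CS against control called 0 genes with the length offset in the 4 α7G libraries, and also with library size scaling, with all 8 libraries, with sex as a block and with the wider offset. It called 1157 without the offset, 1 with a linear offset, 6 with exonic length, 1 with filterByExpr (Inmt), 290 over all genes with a count and 952 with the sex block and no offset. DESeq2 called 185 with the length correction, 1403 without it and 100 with the wider one. Leaving out each library gave 0 to 368 calls. In these fits a lone library is assumed to vary like the other group. For the difference between the responses of the lines, DESeq2 called 4 genes and leaving out each library gave 0 to 1. Genes past 1.5-fold in both pairs numbered 219 upward and 766 downward without the length correction and 499 and 729 with filterByExpr, and 70 downward with the wider correction.

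Without the offset the list medians were 0.44 for fibroblasts, 0.36 for matrix proteins, 0.21 for collagens, 0.26 for endothelial cells, 0.78 for NRF2 targets, -0.0084 for alveolar type II cells, -0.066 for NK cells, 0.95 for complex I and -1.38 for dyneins. With filterByExpr they were 0.90 for fibroblasts, 0.71 for matrix proteins, 0.59 for collagens and -0.51 for clock activators. Leaving out each library gave 0.65 to 0.92 for fibroblasts, 0.60 to 0.71 for matrix proteins, 0.53 to 0.94 for collagens, -0.62 to -0.13 for NK cells and -0.66 to 0.18 for dyneins, the last being reversed without the female control.

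Without the offset, in DESeq2 without correction, over 8 libraries without the offset and with the sex block and no offset, in this order, Col3a1 turned to -0.060, -0.053, -0.060 and -0.075, Fn1 to -0.80, -0.79, -0.80 and -0.76, Per2 to -0.42, -0.42, -0.42 and -0.41, Itgb2 to -0.15, -0.14, -0.15 and -0.15, Ccl5 to 0.36, 0.37, 0.36 and 0.40, Gzma to 0.074, 0.080, 0.074 and 0.18, Nkg7 to 0.47, 0.48, 0.47 and 0.50, Hmox1 to 0.19, 0.20, 0.19 and 0.19, Gclm to 0.31, 0.32, 0.31 and 0.35, Lyz2 to 0.31, 0.32, 0.31 and 0.32, Scgb1a1 to 0.38, 0.39, 0.38 and 0.38, Sftpb to 0.0055, 0.014, 0.0055 and 0.0067, and Sftpc to 0.37, 0.38, 0.37 and 0.35. With the wider correction in edgeR, in DESeq2 and over 8 libraries, Gclm turned to 0.31, 0.31 and 0.31, Itgb2 to -0.073, -0.074 and -0.068 and Tiparp to 0.16, 0.16 and 0.17. With exonic length, Ctss turned to -0.034, Fn1 to -0.28, Gclm to 0.51, Itgb2 to -0.23, Per2 to -0.14 and mt-Co1 to -0.32. Gclm was also at 0.035 with filterByExpr, 0.041 over all genes with a count and 0.0077 with the sex block, and Nkg7 at 0.013 over all genes with a count. Leaving out each library gave -0.074 to 0.28 for Fn1, -0.62 to 0.32 for Gzma and -0.25 to 0.034 for Nkg7, turned without the female control, -0.24 to 0.082 for Hmox1 and -0.19 to 0.46 for mt-Co1, turned without the male control, and -0.31 to 0.14 for Per1, -0.072 to 0.46 for Tef and -0.55 to 0.17 for Sftpc, turned without the male CS library. In the same way Gclm ranged over -0.26 to 0.28 and turned without either female library, Tiparp over -0.20 to 0.094 and turned without the female control or the male CS library, and Per2 over -0.25 to 0.41 and turned without either male library. The cause of these changes beyond coding length was not tested. The other 1430 alternative values of 86 genes named in the text kept their direction, and 294 of them passed a threshold that the value in the report did not.

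The replicate number marks only sex, with 2 pairs. Deviations of same-sex libraries correlated at 0.31 with the length correction and at 0.23 without it. At a floor of 3 counts, genes under about 0.36 RPM could not be compared.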

Other observations

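Ribosomal protein genes were left out of the test by name, so their values stand here. Rplp1 was at 1047 and 1299 RPM in the male and female controls and at 2788 and 2362 RPM in the male and female CS libraries. Rpl13a was at 1033 and 1343 RPM in the controls and at 2352 and 1865 RPM in CS, and Rps3 at 1769 and 2061 RPM in the controls and at 3103 and 2698 RPM in CS. With filterByExpr their length-corrected log2 fold-changes were 0.57 ± 0.17, 0.88 ± 0.20 and 0.41 ± 0.17, with edgeR adjusted p between 0.15 and 0.33, so that none was called.

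Uchl1, a ubiquitin hydrolase of neurons and neuroendocrine cells, was under the count filter. It was at 2.65 and 4.91 RPM in the controls and at 53.2 RPM in the male and 8.01 RPM in the female CS library.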
